A study of Mus musculus with 4 samples.

Results

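Heat shock proteins and their DnaJ partners were described in cultured mouse (Mus musculus) cavernous endothelial cells, which line the blood spaces of erectile tissue. The set held all gene symbols that begin with Hsp or with Dnaj followed by a, b or c and a digit, other than Hspg2, a matrix proteoglycan. This gave 74 of the 23238 symbols measured, 29 Hsp genes and 45 DnaJ genes. The cells came from corpus cavernosum tissue, grew in M199 medium with serum and heparin, and received glucose over 72 hours. One group had normal glucose (replicates 1 and 2) and the other high glucose (replicates 2 and 4), and no genotype, strain or age is given for either. The labels give neither the sugar concentrations, nor an osmotic control, nor whether replicates were separate cultures, so the spread behind each p-value may be purely technical.

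Heat shock proteins are chaperones, which bind unfolded proteins and help them fold or be degraded. Hsp70 proteins do this with energy from ATP, DnaJ (Hsp40) proteins bring clients to them and start the ATP cycle, and Hsp110 proteins and other exchange factors restart it. Hsp90 proteins finish the folding of kinases and receptors, Hsp60 and Hsp10 form a folding cage in mitochondria, and small heat shock proteins hold aggregating proteins without ATP. Heat and misfolded cytosolic protein induce some members through heat shock factor HSF1. Misfolded protein in the endoplasmic reticulum induces others through ATF6 and XBP1. Some of the rest, such as Hspa8, are made constantly.

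Total counts ran from 46571770 to 74971589, the lowest being normal glucose replicate 2. Levels are given as CPM, counts scaled to a common library size with TMM factors that correct for composition, and sets of 4 values are in the order normal glucose replicates 1 and 2, then high glucose replicates 2 and 4. Normal glucose replicate 2 stood apart: over all 16270 genes tested it was the highest or the lowest library in 71.9%. Of 12 endothelial markers, 6 (Tek, Tie1, Erg, Nos3, Vwf and Emcn) had a mean under 1 CPM and none was at 0 in any library. Their summed level was 71.4 and 91.5 CPM in normal and 57.5 and 61.9 CPM in high glucose, against 9607 to 11539 CPM for 9 fibroblast markers, 65.7 to 74.2 CPM for 6 macrophage markers and 2.10 to 3.32 CPM for 6 epithelial markers, so the labelled cell type was only thinly marked. In bulk RNA, fewer cells of a type and less RNA per cell cannot be told apart.

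None of the 69 members tested passed the threshold of an adjusted p of 0.05 between high and normal glucose (edgeR's quasi-likelihood test, adjusted over all genes; smallest adjusted p = 0.757). Over all genes 0.0123% passed. DESeq2 called 0 members (all genes 0.455%), as did edgeR's exact test (all genes 0.688%) and limma-voom. At an unadjusted p under 0.05 there were 3 members higher and 1 lower, which is 5.80% of those tested, against 5.45% of all genes. The groups did not overlap for 18 members that were higher in both high glucose libraries (background 16.3%) and 7 that were lower in both (background 16.2%). The median log2 fold change of the tested members was 0.06, with 42 of 69 (60.9%) above 0, beside a median of -0.0045 and a share of 49.2% over all genes. Without normal glucose replicate 2 the members' median was -0.0094, 33 of 69 lay above 0, and 0 were called (3 at an unadjusted p under 0.05), beside 0.787% of all genes. Without normal glucose replicate 1, when the deviating library alone stood for its group and was assumed to vary like the others, 17 of 70 members passed (24.3%), 13 higher and 4 lower, and so did 16.2% of all genes.

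**Figure D1:**
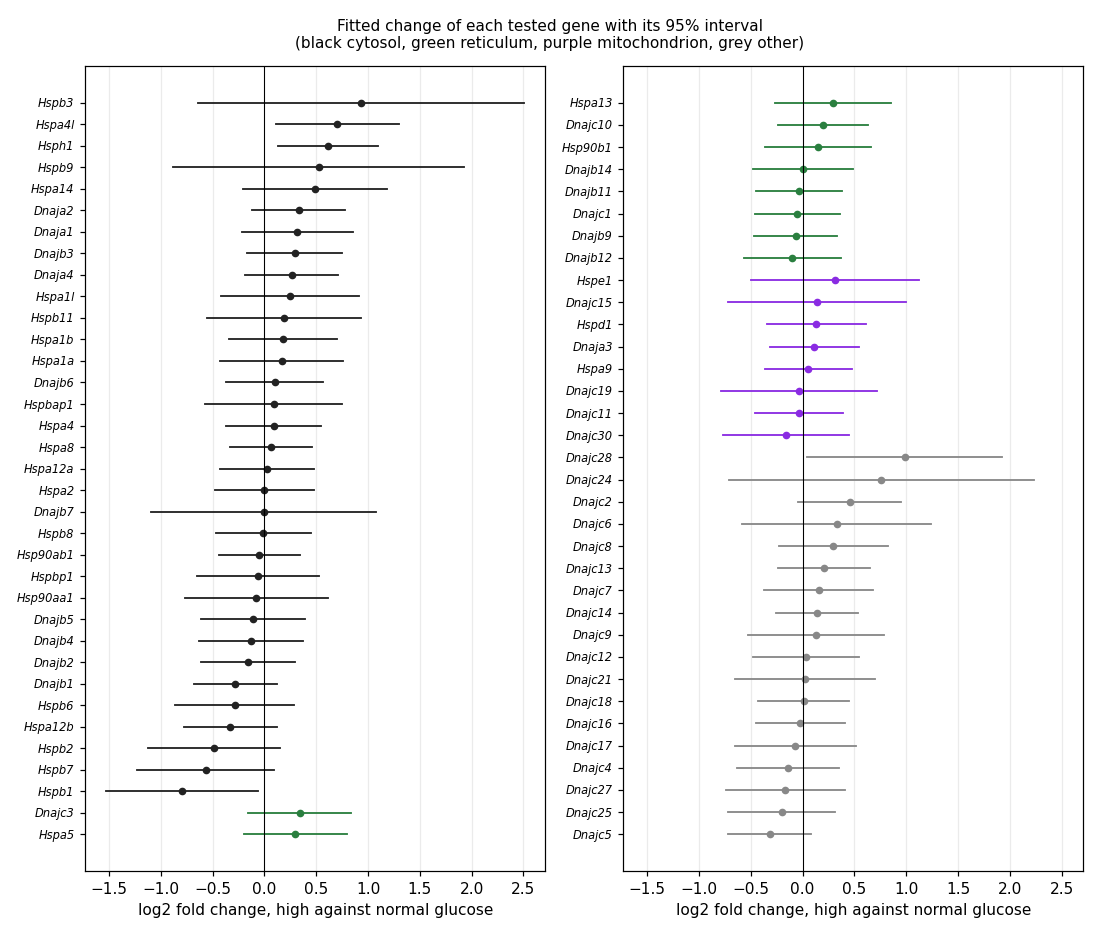
Fitted log2 fold change, high against normal glucose, for the 69 tested members, with the 95% interval as a line; colours give the compartment. Nearly all intervals span 0: those of Hspa4l, Hsph1 and Dnajc28 lie above it and that of Hspb1 lies below it, before any adjustment for the number of genes.

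Promoters were read first for the elements that HSF1 and the reticulum sensors use, the regulators named for the inducible members. RefSeq promoter windows on GRCm38.p6, from 250 bases before to 50 after each annotated start, were at hand for 60 of the 74 members; Hspa8, Hsp90aa1, Hsp90ab1, Hspa9 and Hspa13 were among the 14 not matched. The heat shock element was searched on both strands as GAA, any 2 bases, TTC, any 2 bases, GAA. It was present in 0.603% of all windows and in 6 of 77 windows of members, those of 4 genes: Hspd1, Hspe1, Hsph1 and Dnajb6. Of these only Hsph1 was classed here as inducible, and the others as constitutive. The classes came from textbook location and regulation, not from these data, and a member classed as constitutive may also respond to heat. The inducible Hspa1a, Hspa1b, Dnajb1 and Dnaja1 had windows without a match. The element for reticulum stress was searched on both strands as CCAAT, any 9 bases, CCACG. It was in 0.119% of all windows and in 3 of 77 windows of members, those of Hspa5, Hsp90b1 and Dnajc3. These are matches of letters, not measured binding sites, and motifs that differ by a base were not counted.

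The matches are printed in the direction of transcription of the gene named first, with the matched bases in capitals. Hspd1 and Hspe1 are transcribed away from each other from neighbouring starts, and their shared stretch carries overlapping matches; it is printed for Hspe1, so it runs against the transcription of Hspd1. The Hsph1 match lies after its start site and the other printed matches before theirs. The printed stretches of Hsph1, Dnajb6 and Hspa5 overlap GENCODE exons of the same gene (for Dnajb6 also of Gm5129), that of Hspe1 overlaps an exon of Hspd1, and those of Hsp90b1 and Dnajc3 overlap none.
Hspe1 and Hspd1, chr1:55088053-55088082, plus strand: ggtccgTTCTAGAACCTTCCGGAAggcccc
Hsph1, chr5:149636280-149636308, minus strand: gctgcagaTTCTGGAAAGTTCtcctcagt
Dnajb6, chr5:29735844-29735872, plus strand: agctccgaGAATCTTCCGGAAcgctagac
Hspa5, chr2:34772020-34772048, plus strand: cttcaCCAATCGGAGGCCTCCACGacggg
Hsp90b1, chr10:86705513-86705676, minus strand: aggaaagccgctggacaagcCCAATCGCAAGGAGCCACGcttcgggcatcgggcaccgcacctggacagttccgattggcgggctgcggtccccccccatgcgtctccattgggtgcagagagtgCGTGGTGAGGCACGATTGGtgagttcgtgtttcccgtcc
Dnajc3, chr14:118937807-118937865, plus strand: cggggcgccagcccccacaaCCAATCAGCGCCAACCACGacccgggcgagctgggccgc

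By compartment, the 35 cytosolic members held 70.8% to 74.6% of the members' summed CPM in each library. The 10 reticulum members held 14.6% to 17.8% and the 8 mitochondrial members 5.004% to 5.622%. The 21 members not assigned to these compartments held 5.66% to 5.91%, and some of them may belong to one. The cytosolic share was highest, and the reticulum and mitochondrial shares lowest, in normal glucose replicate 2. Groups did not overlap for 9 of 33 tested cytosolic members that were higher (27.3%) and 5 that were lower (15.2%) in high glucose. Without overlap, 3 of 10 reticulum members and 1 of 8 mitochondrial members (Dnaja3) were higher. Of 18 tested members not assigned, 5 were higher (27.8%) and 2 lower (11.1%). Over all genes, 16.3% were higher and 16.2% lower. Median log2 fold changes were 0.06 for the cytosol, 0.08 for the reticulum and 0.08 for mitochondria, and without normal glucose replicate 2 they were 0.02 for the cytosol, 0.0041 for the reticulum and -0.079 for mitochondria.

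Constitutive cytosolic chaperones made up most of the signal. Hspa8, the constantly made Hsp70 (Hsc70), had 2817, 2552, 2910 and 2707 CPM. Hsp90ab1, the constitutive Hsp90, had 1412, 1414, 1333 and 1400 CPM. These 2 genes alone held 52.6% to 54.3% of the summed CPM of all 74 members in each library. Hspa8 overlapped between the groups, and its log2 fold change was 0.06 (SE 0.17, 95% interval -0.33 to 0.46). Hsp90ab1 was lower in both high glucose libraries by a margin well inside its interval, -0.05 (SE 0.17, 95% interval -0.44 to 0.34). Per kilobase of exon, Hspa8 (1147 CPM per kb) and Hsp90ab1 (552 CPM per kb) ranked 1 and 2 of the 74 members. Other genes hold 44.5% of the 32-base stretches of Hspa8, the largest share in Gm15459, so the authors' counting could have split its reads.

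**Figure D2:**
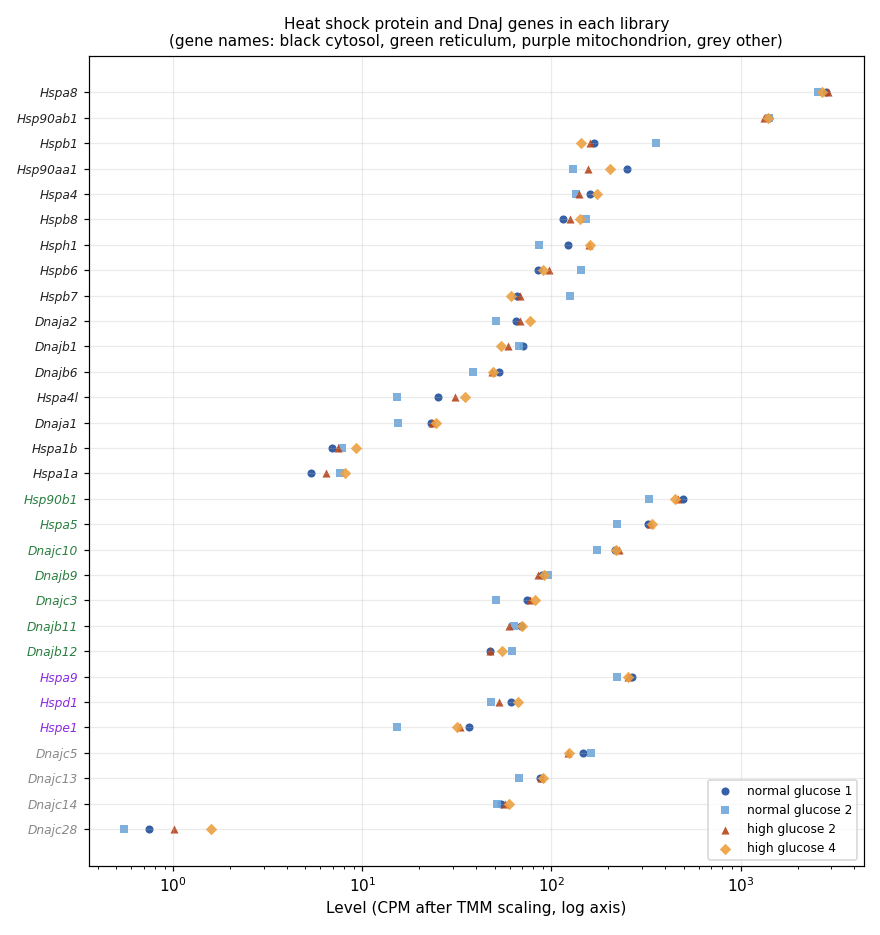
Level of 30 members in each of the 4 libraries, in CPM on a log axis, grouped by compartment; each symbol is a library. Normal glucose replicate 2 (squares) lies apart from the other 3 libraries for many genes, to the right for Hspb1, Hspb6 and Hspb7 and to the left for Hspe1, Hspa5 and Hsph1.

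The heat-inducible Hsp70 genes were scarce in both groups. Hspa1a (chromosome 17, 34969190 to 34972156, GENCODE on GRCm38, as for the genes that follow) had 5.38, 7.62, 6.40 and 8.12 CPM. Its neighbour Hspa1b (chromosome 17, 34956436 to 34959238) had 6.90, 7.82, 7.45 and 9.23 CPM. High glucose replicate 4 was highest for both, and the groups overlapped. Fitted log2 fold changes were 0.17 (95% interval -0.43 to 0.76) and 0.18 (95% interval -0.34 to 0.70). Relatives hold 69.9% of the stretches of Hspa1a and 67.8% of those of Hspa1b, mostly each other's, so the split of reads between them is uncertain. Set against Hspa8 within each library, the summed counts of Hspa1a and Hspa1b gave ratios of 0.00436, 0.00605, 0.00476 and 0.00641.

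Hsp90aa1, the inducible cytosolic Hsp90, had 250, 130, 157 and 203 CPM. The normal glucose libraries were its highest and its lowest, with both high glucose libraries between them. The log2 fold change was -0.08 (SE 0.30), but 0.47 without normal glucose replicate 1 and -0.48 without replicate 2. Its ratio to Hsp90ab1 was 0.177, 0.0919, 0.118 and 0.145, with the same order of libraries. Other genes hold 51.1% of the 32-base stretches of Hsp90aa1, chiefly Gm12346, and 12.1% of those of Hsp90ab1, so reads could have been split.

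Of the 4 members with an unadjusted p under 0.05, 2 were Hsp110 genes. Hsph1, the heat-inducible Hsp110 that recharges Hsp70 with ATP and slows aggregation (chromosome 5, 149614287 to 149636376), had 122, 86.0, 158 and 161 CPM. Both high glucose libraries were higher than both normal glucose libraries. The log2 fold change was 0.61 (SE 0.21, unadjusted p = 0.0190, adjusted p = 0.757, edgeR). It was 0.38 without normal glucose replicate 2 and 0.89 without replicate 1, so its size rests on which normal glucose library is used. Hspa4l, a related exchange factor abundant in testis (chromosome 3, 40744495 to 40796103), had 25.01, 15.2, 30.7 and 34.9 CPM. It showed the same order, with a log2 fold change of 0.70 (SE 0.26, unadjusted p = 0.0250, adjusted p = 0.812, edgeR) and 0.39 without normal glucose replicate 2. Hspa4, the constitutive Hsp110, had 160, 135, 139 and 174 CPM, and its groups overlapped (log2 fold change 0.09, 95% interval -0.37 to 0.54).

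Relative to the constitutive Hsp110, the inducible one was higher in both high glucose libraries. The ratio of Hsph1 to Hspa4 counts was 0.764 and 0.639 in normal and 1.14 and 0.923 in high glucose. The groups did not overlap, and the difference was 0.55 on the log2 scale (exact permutation test, two-sided, p = 0.333, the smallest p that 2 against 2 libraries allow; adjusted p = 1 over 9 pairs). Leaving out single libraries gave differences from 0.40 to 0.70. Groups without overlap were common: over all genes tested, 32.5% did not overlap, in either direction.

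Among DnaJ proteins of the cytosol, the classical inducible member Dnajb1 (Hsp40), which drives Hsp70 to pull apart aggregates, had 70.4, 67.2, 59.2 and 54.1 CPM. Both high glucose libraries were lower, with a log2 fold change of -0.28 (SE 0.17, unadjusted p = 0.146). Hsph1, which HSF1 is also known to induce, lay the other way, and neither gene passed the threshold. The part of HSF1 in either level was not tested. Dnajb6, a potent suppressor of aggregation, had 52.8, 38.7, 48.7 and 49.3 CPM. The ratio of Dnajb1 to Dnajb6 was 1.33 and 1.74 in normal and 1.22 and 1.10 in high glucose, again without overlap (difference -0.40 on the log2 scale, -0.59 to -0.21 with single libraries left out, exact permutation p = 0.333, the smallest possible). Dnaja1, a heat-inducible partner of Hsp70, had 22.9, 15.5, 23.3 and 24.6 CPM, and its constitutive relative Dnaja2 had 64.8, 50.6, 68.2 and 76.8 CPM. Both were higher in both high glucose libraries (log2 fold changes 0.32 and 0.33), and their ratio hardly moved, with a difference of 0.0078 on the log2 scale. Without normal glucose replicate 2 their log2 fold changes were 0.06 and 0.16. Other genes hold 22.6% of the 32-base stretches of Dnajb6 and 22.45% of those of Dnaja1.

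**Figure D3:**
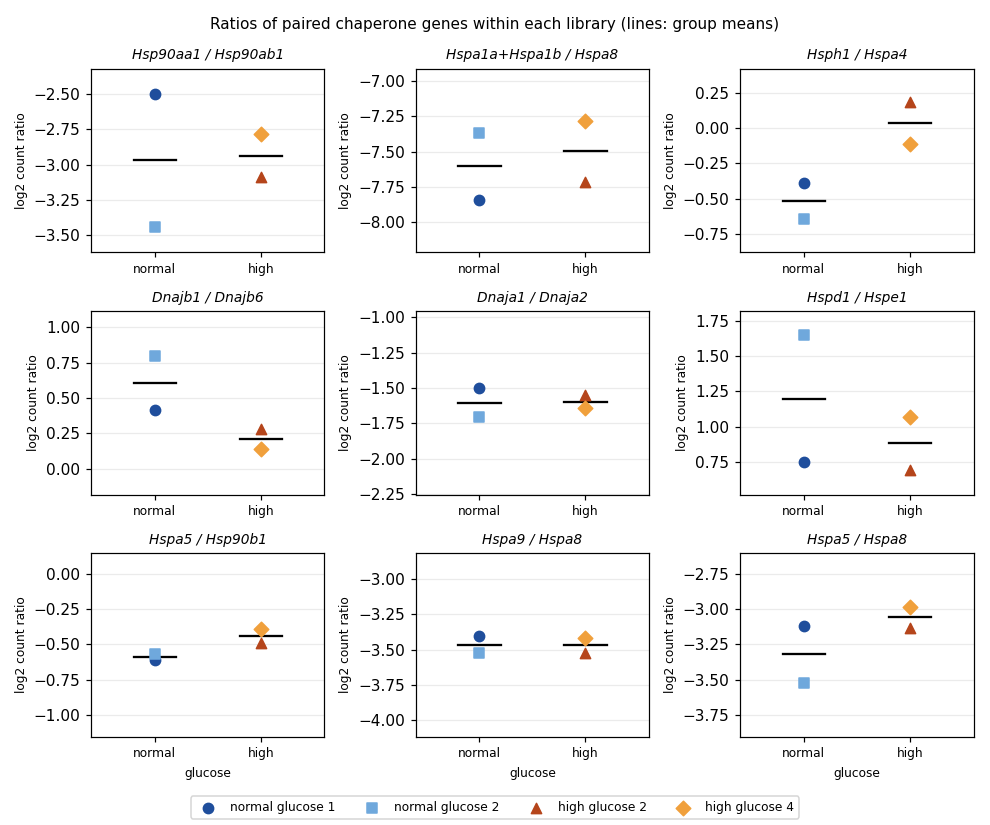
Log2 ratio of counts for 9 pairs of members within each library, by glucose group; symbols are libraries, lines are group means, and every panel spans the same height. Hsph1 to Hspa4, Dnajb1 to Dnajb6 and Hspa5 to Hsp90b1 are the 3 of 9 pairs whose groups do not overlap. Among single genes, 32.5% of all those tested did not overlap, in either direction, so this count of pairs does not stand out.

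Inducible and constitutive cytosolic forms each had members in both directions. Of 8 inducible cytosolic members, 2 (Hsph1, Dnaja1) were higher and 2 (Hspb1, Dnajb1) lower without overlap, and their median log2 fold change was 0.04 (-0.04 without normal glucose replicate 2). Of 7 constitutive cytosolic members, 2 (Dnaja2, Hspa14) were higher and 2 (Hsp90ab1, Dnajb2) lower, with a median of 0.09 (-0.03 without that library). Over all genes, 16.3% were higher and 16.2% lower without overlap. Summed levels of the inducible group were 659, 683, 583 and 614 CPM, and of the constitutive group 4535, 4214, 4526 and 4435 CPM. Hspb1 alone gave 167, 358, 160 and 143 CPM of the inducible sum, so the order of the groups there rests in part on that gene.

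Most small heat shock genes were highest in normal glucose replicate 2. Hspb1 (Hsp27), which guards actin filaments and is heat-inducible (chromosome 5, 135887919 to 135889563), had 167, 358, 160 and 143 CPM. Normal glucose replicate 2 had 2.28 times the mean of the other 3 libraries, which lay close together. Its log2 fold change was -0.79 (SE 0.32, unadjusted p = 0.0377, adjusted p = 0.879, edgeR), and -0.14 without that library. Hspb1 shares 55.2% of its stretches, chiefly with the pseudogene Hsp25-ps1. Hspb7, a heart and muscle member, had 65.6, 126, 68.4 and 60.8 CPM. Hspb6 (Hsp20), a relaxant of smooth muscle, had 84.7, 143, 96.5 and 89.97 CPM. Hspb8, which feeds clients to autophagy with Bag3, had 115, 152, 125 and 141 CPM. For Hspb1, Hspb2, Hspb6, Hspb7 and Hspb8, that is 5 of the 7 small heat shock genes, normal glucose replicate 2 was the highest library, which was so for 36.5% of all genes. The other 2, Hspb3 and Hspb9, had means under 1 CPM.

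Cryab, Bag3 and the summed smooth muscle and pericyte markers and endothelial markers were also highest in that library. Summed fibroblast markers were highest there only by a narrow margin over high glucose replicate 2. Cryab, the small heat shock protein alpha-B crystallin, had 1002, 1449, 909 and 596 CPM (log2 fold change -0.70, unadjusted p = 0.0265, and -0.41 without normal glucose replicate 2). Hspb2 lies head to head with Cryab and overlaps it on the other strand. Unless strand was used in counting, its reads cannot be told apart from Cryab's where they overlap. Bag3 had 102, 217, 122 and 154 CPM. The 8 smooth muscle and pericyte markers summed to 444, 634, 456 and 457 CPM. Of these 8, 4 (Acta2, Cspg4, Des and Pdgfrb) were highest in normal glucose replicate 2, as were 36.5% of all genes. The pericyte genes Cspg4 (145, 231, 109 and 129 CPM) and Pdgfrb (113, 163, 139 and 139 CPM) took a large part of that sum. So did the contractile gene Acta2 (138, 190, 143 and 128 CPM). Des (3.65, 4.04, 2.75 and 3.60 CPM) was low, and the contractile gene Cnn1 (2.51, 3.19, 4.13 and 2.39 CPM) was highest in high glucose replicate 2. The defining smooth muscle genes Myh11 and Myocd stayed at or under 1.54 CPM. The 8 skeletal muscle markers summed to 2.71 to 3.71 CPM, and 5 of them (Ckm, Myh1, Myh2, Myh4 and Myl1) were at 0 in normal glucose replicate 2. These 5 had just 2 to 4 counts in normal glucose replicate 1 and up to 48 in high glucose (Myh1). Ckm was also at 0 in high glucose replicate 4. Endothelial markers summed to 71.4, 91.5, 57.5 and 61.9 CPM, with 7 of 11 tested highest in normal glucose replicate 2. Fibroblast markers summed to 9607, 11539, 11492 and 10560 CPM, with 4 of 9 highest there. Summed macrophage, epithelial and skeletal muscle markers were highest in other libraries. The part of these marker sets in the levels of small heat shock genes was not tested.

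Of the 10 reticulum members, 6 were lowest in normal glucose replicate 2. Hspa5 (BiP), the reticulum's Hsp70 and the sensor-bound chaperone of the unfolded protein response (chromosome 2, 34771970 to 34777547), had 325, 222, 332 and 341 CPM. Both high glucose libraries were above both others, narrowly for replicate 1. The log2 fold change was 0.30 (95% interval -0.20 to 0.80), and 0.05 without normal glucose replicate 2. Hsp90b1 (Grp94), the reticulum's Hsp90, had 496, 330, 467 and 449 CPM (log2 fold change 0.15; -0.12 without that library). Dnajc3 (p58IPK), a BiP partner that also restrains the kinase PERK, had 74.5, 50.8, 76.7 and 82.1 CPM (log2 fold change 0.34; 0.09 without it). Among the 60 members with promoter windows, these 3 had a match to the reticulum stress element. In each the 3 other libraries lay together. The same held for Dnajc10 (216, 173, 227 and 219 CPM), for which no match was found, and for Hspa13, which had no window. The ratio of Hspa5 to Hsp90b1 was 0.654, 0.674, 0.710 and 0.761, without overlap, a difference of 0.15 on the log2 scale (0.0965 to 0.196 with single libraries left out, exact permutation p = 0.333, the smallest possible).

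Other reticulum members differed among themselves. Dnajc10 (ERdj5), a reductase that prepares proteins for disposal, had 216, 173, 227 and 219 CPM. Dnajb9 (ERdj4), an XBP1 target that keeps the sensor IRE1 silent, had 89.2, 95.8, 84.9 and 91.7 CPM. Dnajb11 (ERdj3), a BiP partner for newly made proteins, had 68.8, 63.7, 59.6 and 70.0 CPM. The membrane-bound Dnajb12 had 47.3, 62.1, 47.4 and 54.7 CPM. Dnajb9, Dnajb11 and Dnajb12 overlapped between groups, with 95% intervals within -0.56 and 0.38. Over the 7 stress-regulated reticulum members the median log2 fold change was 0.20, and the summed level was 1299, 955, 1276 and 1285 CPM; without normal glucose replicate 2 the median was 0.0062.

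Mitochondrial chaperones were mostly lowest in that library too. Hspa9 (mortalin), the matrix Hsp70 that pulls imported proteins inward, had 266, 222, 253 and 253 CPM. Hspd1 (Hsp60; chromosome 1, 55077835 to 55088243) had 61.3, 47.7, 52.8 and 66.7 CPM. Hspe1 (Hsp10; chromosome 1, 55088132 to 55091307), the lid of the Hsp60 cage, had 36.5, 15.2, 32.7 and 31.7 CPM. Groups overlapped for all 3, and 7 of the 8 mitochondrial members were lowest in normal glucose replicate 2, as were 35.4% of all genes. Hspd1 and Hspe1 share a promoter stretch, and the ratio of their counts was 1.68, 3.13, 1.62 and 2.10. Other genes, pseudogenes among them, hold 52.4% of the stretches of Hspd1 and 29.9% of those of Hspe1, and the exons of both overlap on opposite strands. The log2 fold change of Hspe1 was 0.31 (SE 0.35), 1.08 without normal glucose replicate 1 and -0.18 without replicate 2.

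**Figure D4:**
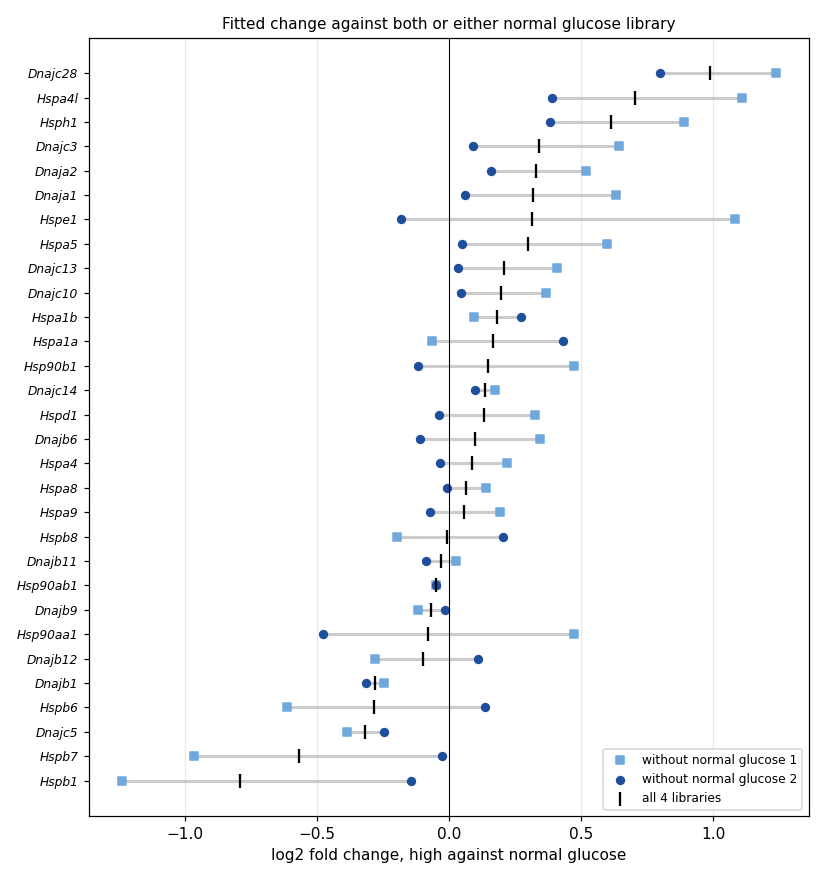
Fitted log2 fold change of 30 members with all 4 libraries (bars), without normal glucose replicate 1 (squares) and without normal glucose replicate 2 (circles). Hsph1, Hspa4l and Dnajc28 stay above 0.3 in all 3 fits, while Hspb1, Hspb7, Hspe1 and Hsp90aa1 depend most on which normal glucose library is used.

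The remaining DnaJ proteins of class C recruit Hsp70 to single tasks. Dnajc5 (cysteine string protein), which works in exocytosis, had 146, 161, 123 and 124 CPM and was lower in both high glucose libraries (log2 fold change -0.32, SE 0.18, unadjusted p = 0.105). Dnajc13, an endosomal protein, had 87.3, 67.4, 88.2 and 90.6 CPM, and Dnajc14 had 54.2, 51.7, 56.8 and 59.6 CPM. Dnajc28 was rare, at 0.746, 0.551, 1.00 and 1.59 CPM from 53, 24, 64 and 123 counts. It was higher in both high glucose libraries (log2 fold change 0.99, SE 0.41, unadjusted p = 0.0418, adjusted p = 0.906, edgeR), and 0.80 without normal glucose replicate 2.

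The other 44 members had means below 50 CPM, and 39 of them were tested, with log2 fold changes from -0.49 (Hspb2) to 0.93 (Hspb3) and unadjusted p of 0.0670 and above. The lowest p belonged to Dnajc2, a ribosome-bound partner of Hspa14. Hspa14 itself had a log2 fold change of 0.49, but 0.11 without normal glucose replicate 2 and 1.03 without replicate 1. Hspa12b, an atypical Hsp70 of endothelium, had a log2 fold change of -0.33 with both high glucose libraries lower. Not tested were Dnajc22, Dnajb13, Dnajc5g, Dnajc5b and Dnajb8, of which Dnajc5b and Dnajb8 had 0 counts in all libraries; a count of 0 allows up to 0.0387 to 0.0688 CPM, for counting error only.

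Genes that work with these chaperones were taken from 5 lists of 59 measured genes. None of the 57 tested passed (edgeR), and 2 had an unadjusted p under 0.05, both lower (3.51%, against 5.45% of all genes). The median log2 fold change was 0.04, but -0.03 without normal glucose replicate 2 and 0.24 without replicate 1. DESeq2, edgeR's exact test and limma-voom also called 0. Bag2, an inhibitor of the ubiquitin ligase CHIP, had 73.2, 77.2, 52.3 and 52.0 CPM (log2 fold change -0.53, unadjusted p = 0.0147, adjusted p = 0.732), and its normal glucose libraries lay together. The other was Cryab. By list, the median log2 fold change was -0.01 for 16 Hsp70 co-chaperones, 0.09 for 18 Hsp90 co-chaperones, -0.24 for 6 tested heat shock factors and regulators, 0.03 for 9 tested other chaperones and 0.08 for 8 subunits of the TRiC chaperonin, which folds actin and tubulin. Without normal glucose replicate 2 these medians were -0.06, -0.04, 0.08, 0.08 and -0.15, so the sign turned for the Hsp90 co-chaperones, the heat shock factors and TRiC. The heat shock factor list includes Hsf5 and Hsf2bp, with means under 1 CPM. Without normal glucose replicate 2 its median covered 7 genes. Hsf3 (3, 0, 2 and 28 counts), not tested with all 4 libraries, was added there. Without normal glucose replicate 1, 19 of 58 pathway genes passed (32.8%, against 16.2% of all genes), and without replicate 2, 0 of 58 passed (4 at an unadjusted p under 0.05, edgeR). Hyou1, the Hsp110 of the reticulum, had 83.6, 83.2, 98.0 and 112 CPM (log2 fold change 0.33). The master regulator Hsf1 had 35.3, 53.5, 41.6 and 38.9 CPM and its relative Hsf2 had 20.2, 15.2, 22.7 and 21.5 CPM. Trap1, the mitochondrial Hsp90, had 37.4, 30.6, 44.3 and 41.7 CPM. Pdia6, a reticulum oxidoreductase, had 66.1, 32.5, 66.7 and 75.1 CPM, with normal glucose replicate 2 far below the rest. Of the TRiC subunits 7 of 8 were lowest in that library, among them Cct3 with 122, 67.7, 112 and 110 CPM, and the groups overlapped for all 8.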

How the data were processed

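RNA was measured in 4 libraries. The authors deposited raw counts by gene symbol for each of them. TopHat, edgeR and mm10 are listed, per the submitters' processing notes, without roles. For the counter, its annotation and its use of strand, the sources used here give nothing. Rows of one symbol (35 symbols) were summed. Genes were tested with edgeR 4.0.16 (quasi-likelihood, filterByExpr, TMM, group as the only term, two-sided; R 4.3.3), with Benjamini-Hochberg adjustment over 16270 genes. Residual spread was shared between genes (prior df 6.37, common coefficient of variation 20.0%). The test was checked on simulated data in which no library deviated, so that check does not cover the deviation of normal glucose replicate 2. Fold changes are fitted, with standard errors (SE). Gene models, exon lengths and shared 32-base stretches came from GENCODE vM21 on GRCm38, which matched all 74 members. Exons of 22 members share at least 10% of stretches with other genes, and those of 26 overlap a gene on the other strand. Unless strand was used in counting, reads from such overlaps cannot be told apart. The 30 members with values per library were in a ratio pair, had a mean of at least 50 CPM, had an unadjusted p under 0.05, or had 0 counts in one library and at least 10 in another (none did). Pathway genes were named by an unadjusted p under 0.05 or as among the next 4 lowest p of a list. Bag3, Hsf1, Hsf3 and the markers were named after their values were seen. Members and lists were chosen with earlier results of these data known. Alternatives were other scalings, filters and tests (DESeq2 1.42.0, limma-voom 3.58.1) and leaving out each library.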

Additional observations from a re-analysis of the deposited data

How the results depend on the processing

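With edgeR, DESeq2 and limma-voom, 0 members were called under the scalings, filters and tests run with all 4 libraries (2 to 5 at an unadjusted p under 0.05), and 0 without normal glucose replicate 2 or either high glucose library; leaving out single libraries gave 0 to 17 calls among members, 0 to 19 among pathway genes and 35 to 2708 among all genes, with the highest counts without normal glucose replicate 1. Calls over all genes, 2 as reported, were 127 with no filter on low counts beyond 1 count, 74 with DESeq2 and 112 with edgeR's exact test. Leaving out single libraries, the median log2 fold change ran from -0.0094 to 0.19 for all tested members, from -0.019 to 0.10 for cytosolic, 0.0041 to 0.22 for reticulum and -0.079 to 0.27 for mitochondrial members, from -0.077 to 0.22 for inducible, -0.039 to 0.22 for constitutive and 0.0062 to 0.47 for reticulum stress forms. Log2 ratio differences ran from -0.44 to 0.51 for Hsp90aa1 to Hsp90ab1, -0.13 to 0.34 for Hspa1a and Hspa1b to Hspa8, -0.10 to 0.11 for Dnaja1 to Dnaja2, -0.77 to 0.13 for Hspd1 to Hspe1 and -0.065 to 0.056 for Hspa9 to Hspa8. Log2 fold changes that changed sign ran from -0.15 to 0.090 for Dnajb11, -0.28 to 0.11 for Dnajb12, -0.11 to 0.34 for Dnajb6, -0.48 to 0.47 for Hsp90aa1, -0.12 to 0.47 for Hsp90b1, -0.066 to 0.43 for Hspa1a, -0.083 to 0.25 for Hspa4, -0.0065 to 0.14 for Hspa8, -0.073 to 0.19 for Hspa9, -0.61 to 0.14 for Hspb6, -0.20 to 0.20 for Hspb8, -0.046 to 0.33 for Hspd1 and -0.18 to 1.08 for Hspe1. With all 4 libraries, Dnajb11 turned to 0.0067 with library size alone, and Hspb8 to 0.014 with upper quartile scaling, 0.043 with library size alone and 0.0048 with limma-voom; the cause was not tested. Where a library was left out, the lone library of its group was assumed to vary like the others. No paired analysis was possible because normal and high glucose have just number 2 in common. The precision is limited by 2 libraries per group and, for rare members such as Dnajc28 (24 counts in normal glucose replicate 2, SE 0.41 against 0.17 for Hspa8), by depth.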
